A study of Mus musculus with 9 samples.

Results

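Rgs16 (NCBI gene 19734) encodes a regulator of G protein signalling, and its transcript was followed here in mouse liver under 3 feeding regimens. It was 1 of 5608 genes in the deposited expression table and was picked by its symbol, with its high level in the FMD group already known from these data. Its own levels are therefore a description, without a test. All 9 mice were wild-type (wt) C57BL/6J animals that differed in feeding, with 3 mice per group and 1 liver library per mouse. FED mice had standard diet ad libitum. IF mice were fasted intermittently, which meant 24 h without food 2 times a week and free feeding in between. FMD mice ate a fasting-mimicking diet of strongly reduced calories for 3 days. By the paper's design, mice were killed after the last fast in IF and after the last diet day in FMD. The diet also had more fat and less protein than standard diet, and IF and FMD mice were given hydrogel. Mice were assigned to groups at random, and their age is not given in the sources used here. Whole liver was sequenced, so fewer cells of a type and less RNA per cell cannot be told apart.

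RGS proteins switch off G protein signalling. A receptor bound by its ligand loads a G alpha subunit with GTP, and the RGS protein speeds up the hydrolysis of that GTP, so that the alpha subunit returns to its beta and gamma partners. RGS16 acts on the Gi and Gq classes of alpha subunit, of which the first lowers cAMP and the second releases calcium through inositol trisphosphate. In the liver, Rgs16 is known as a gene of periportal hepatocytes whose transcript follows the daily feeding rhythm, and it has been tied to the carbohydrate-responsive factor ChREBP and to fatty acid oxidation.

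The sequences just upstream of Rgs16 and of Coq10b and Mtrr, the 2 genes that were among the 8 most like it both as deposited and after the scaling described further on, are shown to place the promoters of genes that were high together. Each is a RefSeq window of 300 bases on GRCm38.p6, from 250 bases before the annotated start site to 50 after it, printed 5′ to 3′ on the gene's strand. The Rgs16 window is chr1:153740103-153740402 on the plus strand, that of Coq10b chr1:55052520-55052819 on the plus strand, and that of Mtrr chr13:68582120-68582419 on the minus strand. Capitals mark the motifs searched on both strands, which were the cAMP response element TGACGTCA, the E-box CACGTG, the CCAAT box CCAAT and the GC box GGGCGG.
Rgs16: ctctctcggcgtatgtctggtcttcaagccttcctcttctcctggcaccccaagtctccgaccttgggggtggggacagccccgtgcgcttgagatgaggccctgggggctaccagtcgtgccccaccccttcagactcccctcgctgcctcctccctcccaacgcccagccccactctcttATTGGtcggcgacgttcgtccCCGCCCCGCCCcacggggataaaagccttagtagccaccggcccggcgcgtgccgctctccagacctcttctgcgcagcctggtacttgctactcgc
Coq10b: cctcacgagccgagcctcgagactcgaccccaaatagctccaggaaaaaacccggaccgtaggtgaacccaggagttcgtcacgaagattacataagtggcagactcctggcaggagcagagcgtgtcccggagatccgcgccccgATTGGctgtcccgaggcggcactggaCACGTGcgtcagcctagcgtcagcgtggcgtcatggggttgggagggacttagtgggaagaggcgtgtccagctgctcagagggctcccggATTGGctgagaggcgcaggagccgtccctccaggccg
Mtrr: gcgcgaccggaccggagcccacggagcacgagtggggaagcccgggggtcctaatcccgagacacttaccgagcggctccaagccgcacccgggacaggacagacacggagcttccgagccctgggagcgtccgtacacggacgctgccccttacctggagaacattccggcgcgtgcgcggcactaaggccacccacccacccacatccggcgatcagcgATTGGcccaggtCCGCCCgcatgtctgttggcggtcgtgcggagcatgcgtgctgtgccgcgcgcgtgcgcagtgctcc

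The Rgs16 window held 1 CCAAT box, which reads ATTGG on the printed strand and begins 68 bases upstream of the start site. It also held 2 GC boxes, beginning 47 and 42 bases upstream and overlapping by 1 base, and none of the letters searched for a cAMP response element or an E-box. Among 32851 RefSeq windows of the same length, 37.4% held a CCAAT box, 35.7% a GC box, 7.15% an E-box and 1.79% a cAMP response element. Of the 8 genes most like Rgs16, 6 had a window in the table. Of these 6, 3 held a CCAAT box, 4 a GC box and 0 a cAMP response element, and an E-box was found in 1, Coq10b, 78 bases upstream. These matches describe letters and are not sites of binding.

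Values were deposited as TPM, a measure of transcript abundance in which read numbers are divided by transcript length and by the library's total. Levels of different genes can thus be compared on this scale. The table held part of each library, with listed genes making up 26.3% to 29.3% of the TPM total in FED, 32.9% to 34.9% in IF and 34.9% to 43.0% in FMD, and the depth of the libraries is unknown. Among the 4665 genes with a mean of at least 1 TPM, the median log2 fold change was 0.24 in IF vs FED, 0.48 in FMD vs FED and 0.24 in FMD vs IF. Fold changes and calls were therefore also computed after scaling each library by its median ratio to the geometric mean library, which brought these medians close to 0. FMD replicate 1 stood apart, since it was the highest of the 3 FMD libraries at 71.8% of the tested genes, and at 35.8% after scaling. The liver label could be checked with Cyp2f2, Ass1 and Gls2 of periportal and Glul of pericentral hepatocytes, of which the lowest value in any library was 159 TPM, in Gls2.

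Rgs16 was low in FED and IF livers and high in FMD livers. In FED replicates 1, 2 and 3 it was at 3.2, 1.96 and 4.09 TPM, with a mean of 3.08 ± 1.07 (SD, n = 3). IF replicates 1, 2 and 3 had 1.94, 4.34 and 1.76 TPM, with a mean of 2.68 ± 1.44 (SD, n = 3). FMD replicates 1, 2 and 4 had 23.6, 45.5 and 23.5 TPM, with a mean of 30.9 ± 12.6 (SD, n = 3). All 3 FMD libraries were above all 6 others, whereas FED and IF libraries were interleaved, with the highest and the lowest of these 6 values both in IF. The order of group means was thus FMD, FED and IF, of which FED and IF did not differ beyond their spread. After scaling, the means were 26.0 ± 12.3 in FMD, 3.72 ± 1.24 in FED and 2.66 ± 1.38 scaled TPM in IF (SD, n = 3 each), in the same order.

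**Figure D1:**
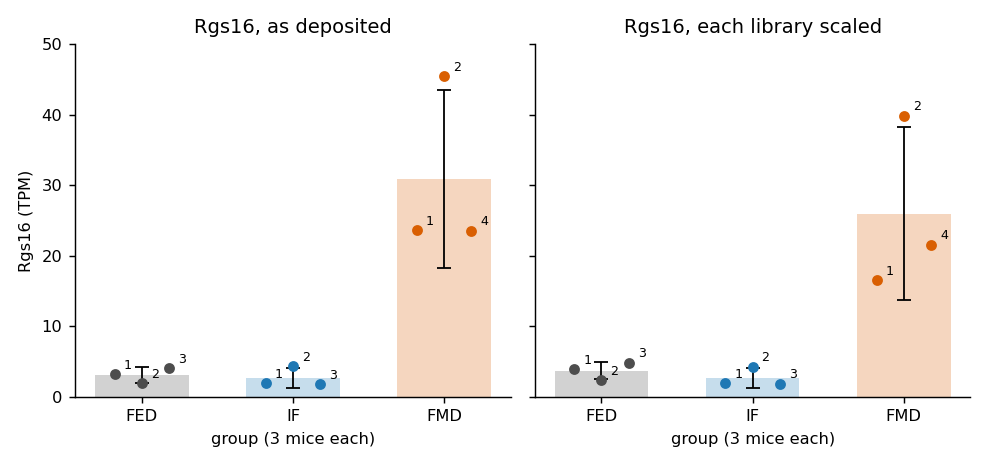
Rgs16 level in TPM in each of 9 livers, as deposited (left) and after scaling each library (right), for FED, IF and FMD mice. Points are single mice with their replicate number, bars are means of 3 mice and error bars are SD. The 3 FMD mice sit between 23.5 and 45.5 TPM on the left and between 16.5 and 39.8 scaled TPM on the right, above every FED and IF mouse.

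The ratio of the FMD to the FED mean was 10, and that of the FMD to the IF mean was 11.5. The closest pair of libraries gave a ratio of 5.75 against FED and 5.42 against IF. On the log2(TPM + 1) scale, the difference was 2.93 (standard error 0.31) in FMD vs FED, 3.11 (0.31) in FMD vs IF and -0.18 (0.31) in IF vs FED. After scaling it was 2.46, 2.85 and -0.40 (standard error 0.34 each). Ranked by this fold change among the 4665 genes, Rgs16 was number 11 from the top in FMD vs FED and number 2 in FMD vs IF, and numbers 12 and 2 after scaling. FMD libraries lay above all FED libraries at 68.0% of the tested genes, and at 18.5% after scaling. Above all IF libraries they lay at 33.6%, and at 12.6% after scaling.

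The level also moved Rgs16 within each liver's own order of genes. It was above 27.1% to 40.4% of the listed genes in FED, 23.9% to 38.3% in IF and 67.2% to 82.4% in FMD. Within the FMD group, replicate 2 was the highest, at 1.93 times the lowest, and the coefficient of variation was 41.0%, against 34.7% in FED and 53.7% in IF. Of the tested genes, 14.9% had their highest FMD value in replicate 2 as deposited and 30.7% after scaling.

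The other members of the RGS family stayed below the level that Rgs16 had in FMD livers. Of 28 listed, 9 were in the table and 6 passed the filter of a mean of 1 TPM, and limma called 0 of these 6 in each of the 3 comparisons. A call here means an adjusted p under 0.05 and a change of more than 1.5-fold. At an unadjusted p under 0.05 there were 0 in IF vs FED, 2 in FMD vs FED (Snx14 and Akap10) and 2 in FMD vs IF (Snx14 and Rgs2). In FMD vs FED, Snx14 and Akap10 also passed the adjusted p (limma adjusted p = 0.0136 and 0.0293) and missed the call by the fold limit. Over all tested genes, 11.9% were called in IF vs FED, 37.1% in FMD vs FED and 5.14% in FMD vs IF, and 7.14%, 11.1% and 2.23% after scaling.

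Rgs2, which acts mainly on the Gq class, was at 0.86, 1.06 and 1.17 TPM in FED, 0.81, 0.61 and 0.94 in IF, and 2.65, 1.93 and 0.75 TPM in FMD. FMD replicate 4 was thus below every FED library while the other FMD libraries were above them all, and the log2 fold change of 0.39 in FMD vs FED was not called (limma adjusted p = 0.146). Rgs3, another RGS protein with GTPase-activating function, ranged from 1.12 to 5.86 TPM in FED, 1.2 to 2.71 in IF and 2.01 to 5.93 TPM in FMD, with overlap of all groups. Rgs10, a small RGS protein best known from immune and nervous cells, averaged 1.95 ± 0.753 TPM in FED, 1.10 ± 0.203 in IF and 1.34 ± 0.652 TPM in FMD (SD, n = 3 each). Its log2 fold change in FMD vs FED was -0.34 as deposited and -0.69 after scaling, where it was called lower.

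Snx14, Snx25 and Akap10 carry RGS-like domains and are known as sorting nexins and as an anchor of protein kinase A, respectively. Snx14 averaged 7.21 ± 0.481 TPM in FED and 10.3 ± 1.94 TPM in FMD (SD, n = 3 each), a log2 fold change of 0.45 that became -0.04 after scaling. Snx25 and Akap10 stayed between 2.37 and 6.12 TPM in all 9 libraries. Rgs11, Rgs14 and Rgs17 were at or below 0.23 TPM everywhere and were not tested. Per transcript length, Rgs16 was number 1 of the 10 RGS family genes of the table in each FMD library, whereas it was between number 3 and number 6 in the FED and IF libraries.

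**Figure D2:**
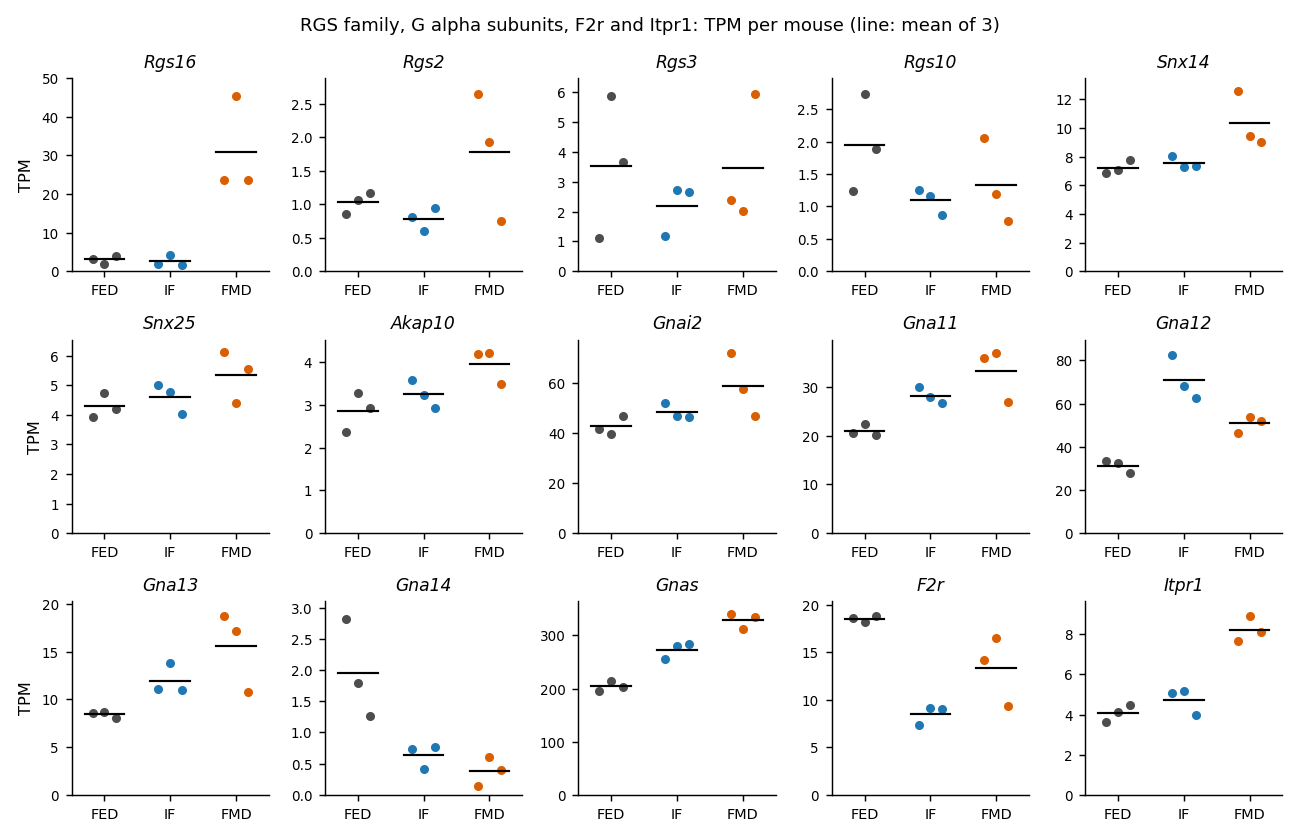
TPM in each of 9 livers (y axes from 0, a scale for each gene) for Rgs16, the 6 other tested RGS family genes, 6 G alpha subunits, the receptor F2r and the calcium channel Itpr1. Points are single mice and lines are means of 3 mice for FED, IF and FMD. The FMD points of Rgs16, Snx14, Gnas and Itpr1 lie above all other points of their panel. Those of Gna14 lie below all FED points, and Gna12 is highest in IF.

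Alpha subunits are what RGS proteins act on, and the highest level among them in these livers was that of Gnas. Of 16 alpha subunit genes listed, 8 were in the table and 5 were tested. Compared with FED, 1 was called higher in IF (20.0% of the list) and 4 were called higher in FMD (80.0%). Higher calls over all tested genes made up 10.3% for IF and 35.5% for FMD. With 5 genes tested, each gene counts for 20.0%. After scaling, the 4 calls in FMD vs FED were lost and that in IF vs FED was kept. Higher calls over all tested genes were then 5.49% for FMD and 3.69% for IF. Gnai2, the Gi class subunit that RGS16 can act on, was at 41.5, 39.7 and 47.0 TPM in FED, 52.2, 46.7 and 46.3 in IF and 72.1, 57.6 and 46.9 TPM in FMD. The highest value was in FMD replicate 1, and the log2 fold change of 0.44 in FMD vs FED was under the fold limit and was -0.11 after scaling. Gnao1, of the same class, was at or below 0.12 TPM in every library.

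The Gq class was represented by Gna11 and Gna14. Gna11 averaged 21.0 ± 1.21 TPM in FED, 28.2 ± 1.65 in IF and 33.3 ± 5.60 TPM in FMD (SD, n = 3 each), with a log2 fold change of 0.63 in FMD vs FED (limma adjusted p = 0.00319) that became 0.10 after scaling and was no longer called without FMD replicate 1 or 2. Gna14 was too low for the test, with 2.82, 1.79 and 1.26 TPM in FED, 0.74, 0.42 and 0.76 in IF and 0.14, 0.61 and 0.40 TPM in FMD. All 6 IF and FMD libraries were thus below all 3 FED libraries. Among the tested genes, which do not include Gna14, IF libraries lay below all FED libraries at 6.77%. FMD libraries did so at 2.62%, and the 2 shares were counted separately.

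Gna12, an alpha subunit of the G12 class, had the largest called change of this list. It was at 33.5, 32.3 and 28.0 TPM in FED, 82.6, 68.3 and 62.5 in IF and 46.3, 54.0 and 52.1 TPM in FMD. Every IF library was above every FMD library, and those were above every FED library. IF libraries lay above all FED libraries at 53.8% of the tested genes. The log2 fold change was 1.16 in IF vs FED (standard error 0.13, limma adjusted p = 0.000401) and 0.88 after scaling, a call kept in each alternative. In FMD vs FED it was 0.68 (limma adjusted p = 0.00204) but only 0.14 after scaling. In FMD vs IF it was -0.47 and not called, and -0.74 and called lower after scaling. Gna13 of the same class averaged 8.43 ± 0.3 TPM in FED and 15.6 ± 4.23 TPM in FMD, with a log2 fold change of 0.78 (limma adjusted p = 0.00464) that was 0.27 and not called after scaling. Gnas, the Gs subunit that raises cAMP, averaged 204 ± 9.53 TPM in FED, 273 ± 14.7 in IF and 329 ± 14.1 TPM in FMD (SD, n = 3 each). Its log2 fold change of 0.68 in FMD vs FED (limma adjusted p = 0.000638) became 0.13 after scaling.

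In the lists of beta and gamma subunits and of G protein modulators, genes were called only in FMD vs FED, and in no comparison after scaling. Of 4 tested beta and gamma genes, 1 was called higher in FMD vs FED, and of 3 tested modulators, 2 were. Over all tested genes, 35.5% were called higher in that comparison. Gnb1, a beta subunit, averaged 24.4 ± 0.929 TPM in FED and 42.1 ± 13.4 TPM in FMD (log2 fold change 0.72, limma adjusted p = 0.00622). Its FMD values of 57.5, 35.5 and 33.3 TPM were again led by replicate 1. Ric8a, a chaperone and exchange factor of alpha subunits, was at 22.3 TPM in FMD replicate 1 and at 12.4 and 9.56 TPM in replicates 2 and 4, with a log2 fold change of 0.81 (limma adjusted p = 0.0116). Pdcl3, a phosducin-like protein, had a log2 fold change of 0.75 (limma adjusted p = 0.00984). Pdcl of the same list was not called (log2 fold change 0.27, limma adjusted p = 0.157). The calls of Gnb1, Ric8a and Pdcl3 were lost after scaling and also without FMD replicate 1.

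Across the 8 lists of G protein signalling genes, without Rgs16, 251 genes were listed, 73 were in the table and 49 were tested. In IF vs FED 6 were called higher and 1 lower, in FMD vs FED 15 higher and 0 lower, and in FMD vs IF 2 higher and 1 lower. The shares called, 14.3%, 30.6% and 6.12%, stood beside 11.9%, 37.1% and 5.14% of all tested genes. Of all tested genes, 10.3% were higher and 1.59% lower in IF vs FED, 35.5% higher and 1.61% lower in FMD vs FED, and 4.67% higher and 0.472% lower in FMD vs IF. The median log2 fold changes of 0.22, 0.42 and 0.17 stood beside 0.24, 0.48 and 0.24 over all tested genes. By list, in the same order of comparisons, the medians were -0.06, 0.31 and 0.31 for the RGS family, 0.42, 0.68 and 0.26 for alpha subunits, 0.39, 0.35 and 0.02 for the cAMP pathway, 0.24, 0.36 and 0.11 for Gq effectors and 0.18, 0.20 and 0.05 for receptors. After scaling, these medians were -0.26, -0.13 and 0.08 for the RGS family, 0.14, 0.13 and -0.01 for alpha subunits, 0.14, -0.08 and -0.23 for the cAMP pathway, 0.03, -0.03 and -0.07 for Gq effectors and -0.06, -0.23 and -0.16 for receptors. After scaling, 3 were called higher and 1 lower in IF vs FED, 2 higher and 4 lower in FMD vs FED, and 1 higher and 2 lower in FMD vs IF. The shares of all tested genes were then 3.69% higher and 3.45% lower, 5.49% higher and 5.64% lower, and 1.11% higher and 1.11% lower. The 4 lower ones in FMD vs FED, F2r, Lpar6, Adgrl2 and Rgs10, include Lpar6 and Adgrl2, receptors named after their values were seen, at -0.77 and -0.63. Without FMD replicate 1, 9 were called in FMD vs FED, and without FMD replicate 4, 10 were called in FMD vs IF. In that comparison 1 was called without IF replicate 1, 2 or 3 in turn.

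**Figure D3:**
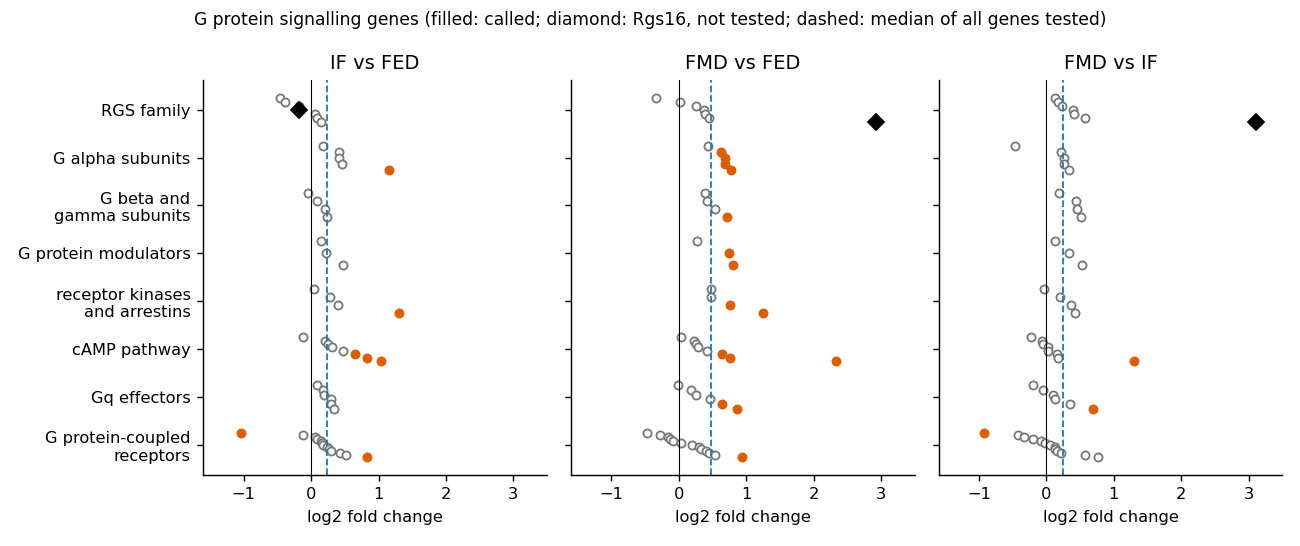
Log2 fold change (x axis, on log2(TPM + 1)) of the 49 tested G protein signalling genes in the 3 comparisons, by functional list (y axis). Filled points were called by limma, open points were not, the diamond is Rgs16, which was not tested, and the dashed line is the median of all tested genes, at 0.24, 0.48 and 0.24. Rgs16 lies at -0.18 in IF vs FED and at 2.93 and 3.11 in the comparisons with FMD, to the right of every other point.

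Of 107 receptor genes listed, 26 were in the table and 13 were tested. In IF vs FED 1 was called higher and 1 lower, in FMD vs FED 1 higher, and in FMD vs IF 1 lower. The shares called were 15.4%, 7.69% and 7.69%, beside 11.9%, 37.1% and 5.14% of all tested genes. After scaling they were 7.69%, 23.1% and 7.69%, beside 7.14%, 11.1% and 2.23%. F2r, the thrombin receptor PAR1, was at 18.6, 18.2 and 18.8 TPM in FED, 7.37, 9.16 and 9.01 in IF and 14.2, 16.5 and 9.35 TPM in FMD. All IF and FMD libraries were below all FED libraries, and FMD replicate 4 was near the IF values. It fell by 1.04 on the log2 scale in IF vs FED (limma adjusted p = 0.00294), a call kept in each alternative. In FMD vs FED the log2 fold change was -0.48, under the fold limit, and -1.0 after scaling, where it was called lower.

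Fzd8, a Wnt receptor, averaged 4.54 ± 1.07 TPM in FED, 8.81 ± 1.42 in IF and 4.22 ± 1.14 TPM in FMD (SD, n = 3 each). All IF libraries were above all others, and the log2 fold change was 0.83 in IF vs FED (limma adjusted p = 0.0137) and -0.92 in FMD vs IF (limma adjusted p = 0.0296). The first call was lost after scaling and without FED replicate 3 or IF replicate 1 or 2. The second was kept after scaling but lost with 1 fit per pair of groups and without each IF replicate in turn. Gpr107, an orphan receptor of the Golgi, averaged 5.46 ± 0.611 TPM in FED and 11.8 ± 4.45 TPM in FMD (log2 fold change 0.93, limma adjusted p = 0.00441), with FMD values of 16.4, 11.6 and 7.48 TPM, and was not called after scaling. Among receptor kinases and arrestins, Grk6, a kinase that marks active receptors, averaged 6.48 ± 0.235 TPM in FED and 11.9 ± 3.37 TPM in FMD (log2 fold change 0.76, limma adjusted p = 0.00316), a call lost after scaling and without FMD replicate 1.

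Downstream of Gs and Gi, the cAMP pathway held the largest called change of the G protein lists. Of 39 genes listed, 10 were in the table and 8 were tested. Called higher were 3 in IF vs FED, 3 in FMD vs FED and 1 in FMD vs IF, and 1 in each after scaling. The shares called were 37.5%, 37.5% and 12.5%, beside 11.9%, 37.1% and 5.14% of all tested genes. After scaling the share was 12.5% in each, beside 7.14%, 11.1% and 2.23%. Sik1, a kinase that cAMP induces and that restrains CREB coactivators, was at 2.33, 3.32 and 3.37 TPM in FED, 6.70, 6.91 and 7.98 in IF and 21.7, 14.2 and 22.2 TPM in FMD. The 3 groups did not overlap and stood in the order FED, IF and FMD. Its log2 fold change was 1.04 in IF vs FED (limma adjusted p = 0.00318), 2.33 in FMD vs FED (1.69e-05) and 1.29 in FMD vs IF (0.00693), and these calls were kept in each alternative. Rgs16 was no higher in IF than in FED, and the FMD library with the most Rgs16 had the least Sik1 of that group. A link of Rgs16 to cAMP was not tested.

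Crtc2, a CREB coactivator held in check by SIK kinases, averaged 8.85 ± 0.969 TPM in FED, 16.5 ± 0.933 in IF and 15.6 ± 0.959 TPM in FMD (SD, n = 3 each). Compared with FED, it rose by 0.83 in IF (limma adjusted p = 0.00107) and by 0.76 in FMD (limma adjusted p = 0.000666) on the log2 scale. After scaling the changes were 0.57 and 0.25, under the fold limit. Sik2 was called higher in IF vs FED (log2 fold change 0.65, limma adjusted p = 0.00895) and Sik3 in FMD vs FED (0.64, limma adjusted p = 0.00284), and neither was called after scaling. The Sik2 call was also lost without FED or IF replicate 1, and the Sik3 call without FMD replicate 2.

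On the Gq side, Itpr1 had a pattern close to that of Rgs16. Itpr1 encodes an inositol trisphosphate receptor, the channel that releases calcium from the endoplasmic reticulum. It was at 3.61, 4.13 and 4.5 TPM in FED, 5.07, 5.19 and 3.97 in IF and 7.65, 8.92 and 8.12 TPM in FMD. As for Rgs16, all FMD libraries were above all others, FMD replicate 2 was the highest, and FED and IF overlapped. Of all tested genes, 68.0% had every FMD library above all FED libraries, and 33.6% had every FMD library above all IF libraries. The log2 fold change was 0.86 in FMD vs FED (limma adjusted p = 0.000614) and 0.69 in FMD vs IF (limma adjusted p = 0.0196). After scaling these were 0.40 and 0.45 and not called. The call in FMD vs IF was also lost with 1 fit per pair of groups and without each IF replicate in turn. Of the 6 tested genes of this list (20 listed), the other one called was Arhgef1, a guanine nucleotide exchange factor. It was called in FMD vs FED (log2 fold change 0.64, limma adjusted p = 0.00227). This call was lost after scaling and without FMD replicate 1. Arhgef1 was counted here by the list used, and a link of it to Gq was not examined. In FMD vs FED, 33.3% of the tested genes of this list were called, beside 37.1% of all tested genes.

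Because Rgs16 has been tied to feeding state, genes of fasting, of carbohydrate response and of the clock were set beside it. Of 22 listed fasting targets of cAMP and glucocorticoids, 10 were tested. Called higher were 3 in IF vs FED, 8 in FMD vs FED and 2 in FMD vs IF. After scaling the counts were 3, 4 and 2, and 0 were called lower with or without scaling. The shares called were 30.0%, 80.0% and 20.0% as deposited, beside 11.9%, 37.1% and 5.14% of all tested genes. They were 30.0%, 40.0% and 20.0% after scaling, beside 7.14%, 11.1% and 2.23%. The list's median log2 fold changes were 0.95, 1.66 and 0.70, beside 0.24, 0.48 and 0.24 over all tested genes, and 0.72, 1.11 and 0.45 after scaling. Per1, a clock gene that glucocorticoids and cAMP induce, was at 2.54, 1.0 and 1.88 TPM in FED, 10.3, 11.0 and 10.4 in IF and 15, 16.4 and 16 TPM in FMD. It rose by 2.08 in IF vs FED (limma adjusted p = 0.000117) and by 2.62 in FMD vs FED (limma adjusted p = 9.58e-06) on the log2 scale.

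Fkbp5, a glucocorticoid-induced cochaperone, averaged 4.01 ± 1.74 TPM in FED, 23.7 ± 6.51 in IF and 57.6 ± 20.9 TPM in FMD (SD, n = 3 each), with log2 fold changes of 2.34 in IF vs FED (limma adjusted p = 0.00119) and 3.54 in FMD vs FED (limma adjusted p = 4.64e-05). Both of these genes were far above FED in IF livers, where Rgs16 was not. Cebpb, a transcription factor of gluconeogenesis, was at 77.4, 63.1 and 60.9 TPM in FED, 89.5, 87.3 and 96.1 in IF and 179, 212 and 213 TPM in FMD. Its log2 fold change was 1.57 in FMD vs FED (limma adjusted p = 2.13e-05) and 1.13 in FMD vs IF (limma adjusted p = 0.00195), while the 0.44 in IF vs FED was under the fold limit. The calls named for Per1, Fkbp5 and Cebpb were kept in each alternative.

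The carbohydrate response list, of targets and partners of ChREBP, was mixed. All 8 of its 26 genes that were in the table were tested, with 1 called higher and 2 lower in IF vs FED, 2 higher and 3 lower in FMD vs FED, and 1 higher and 1 lower in FMD vs IF. After scaling, 1 was higher and 4 were lower in IF vs FED, 2 were higher and 5 lower in FMD vs FED, and 1 was higher and 1 lower in FMD vs IF. The shares called were 37.5%, 62.5% and 25.0% as deposited, beside 11.9%, 37.1% and 5.14% of all tested genes. They were 62.5%, 87.5% and 25.0% after scaling, beside 7.14%, 11.1% and 2.23%. The median log2 fold changes were -0.11, -0.13 and 0.12 as deposited, beside 0.24, 0.48 and 0.24 over all tested genes. After scaling these list medians were -0.37, -0.63 and -0.15. Of the lipid synthesis genes, Fasn, named after its values were seen, fell by 1.35 in IF vs FED and its change was -1.29 in FMD vs FED, and Acaca and Elovl6 were called lower against FED only after scaling. Scd1, a desaturase of fatty acid synthesis, was at 1604, 1170 and 1899 TPM in FED, 1558, 2395 and 1503 in IF and 42.9, 21.0 and 44.4 TPM in FMD. All FMD libraries were far below all others, and the lowest Scd1 and the highest Rgs16 were both in FMD replicate 2. Among the FED and IF libraries the genes were not opposite, since IF replicate 2 had the highest and FED replicate 3 the next value of both. Scd1 fell by 5.44 in FMD vs FED (limma adjusted p = 2.53e-06) on the log2 scale, and its log2 fold change in FMD vs IF was -5.66 (limma adjusted p = 6.04e-06). FMD libraries lay below all IF libraries at 3.04% of the tested genes.

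Klf10, a transcription factor of the same list, averaged 6.10 ± 1.70 TPM in FED, 7.99 ± 1.40 in IF and 20.0 ± 3.44 TPM in FMD (SD, n = 3 each). It was called in FMD vs FED (log2 fold change 1.58, limma adjusted p = 0.000272) and in FMD vs IF (1.22, limma adjusted p = 0.0135), the second not without IF replicate 2 or 3. Its highest value, 23.4 TPM, was in FMD replicate 2, as for Rgs16. Acly, which makes acetyl-CoA for lipid synthesis, averaged 97.1 ± 31.6 TPM in FED, 38.9 ± 2.44 in IF and 41.1 ± 3.13 TPM in FMD. It fell by 1.24 in IF vs FED (limma adjusted p = 0.00321) and by 1.16 in FMD vs FED (limma adjusted p = 0.00161). Arrdc4, an alpha-arrestin and known ChREBP target, was at 4.08, 2.10 and 4.32 TPM in FED, 9.86, 12.2 and 7.66 in IF and 10.8, 10.8 and 7.20 TPM in FMD. Compared with FED, it rose by 1.30 in IF (limma adjusted p = 0.00417) and by 1.25 in FMD (limma adjusted p = 0.00182) on the log2 scale. Acly and Arrdc4, like Per1 and Fkbp5, thus differed from FED in IF livers as they did in FMD livers.

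Of 19 clock genes listed, 9 were tested, with 3 called higher in IF vs FED, 4 higher and 1 lower in FMD vs FED and 2 higher in FMD vs IF. After scaling, 1 was higher and 1 lower in IF vs FED, 2 were higher and 1 lower in FMD vs FED, and 0 were called in FMD vs IF. The shares called were 33.3%, 55.6% and 22.2% as deposited, beside 11.9%, 37.1% and 5.14% of all tested genes. They were 22.2%, 33.3% and 0% after scaling, beside 7.14%, 11.1% and 2.23%. The median log2 fold changes were 0.32, 0.52 and 0.16 as deposited, beside 0.24, 0.48 and 0.24 over all tested genes. After scaling these list medians were 0.05, 0.07 and -0.08. The lower one in FMD vs FED was Nr1d1, a repressor in the clock, with -0.80, and 1 of the higher ones in FMD vs IF was Bhlhe40, with 0.94, both named after their values were seen. Per2 was at 1.97, 1.04 and 1.26 TPM in FED, 1.99, 2.45 and 1.93 in IF and 3.29, 5.45 and 5.45 TPM in FMD. It was called in FMD vs FED (log2 fold change 1.23, limma adjusted p = 0.000694) and in FMD vs IF (0.85, limma adjusted p = 0.0316), the second neither after scaling, with 1 fit per pair of groups, nor without FED replicate 3, FMD replicate 2 or any of the IF replicates. Cry2, a repressor of the clock, averaged 6.70 ± 0.854 TPM in FED, 11.6 ± 1.82 in IF and 13.1 ± 1.07 TPM in FMD (SD, n = 3 each), called against FED in both regimens as deposited and in neither after scaling. Dbp, an output of the clock, had FMD values of 14.6, 45.4 and 41.8 TPM against 9.67 to 14 TPM in FED. Its calls against FED, of 1.17 in IF and 1.30 in FMD on the log2 scale, were lost after scaling, and that in IF also without each FED or IF library in turn. The hour at which livers were taken is not given in the sources used here, and its part in these values was not tested.

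**Figure D4:**
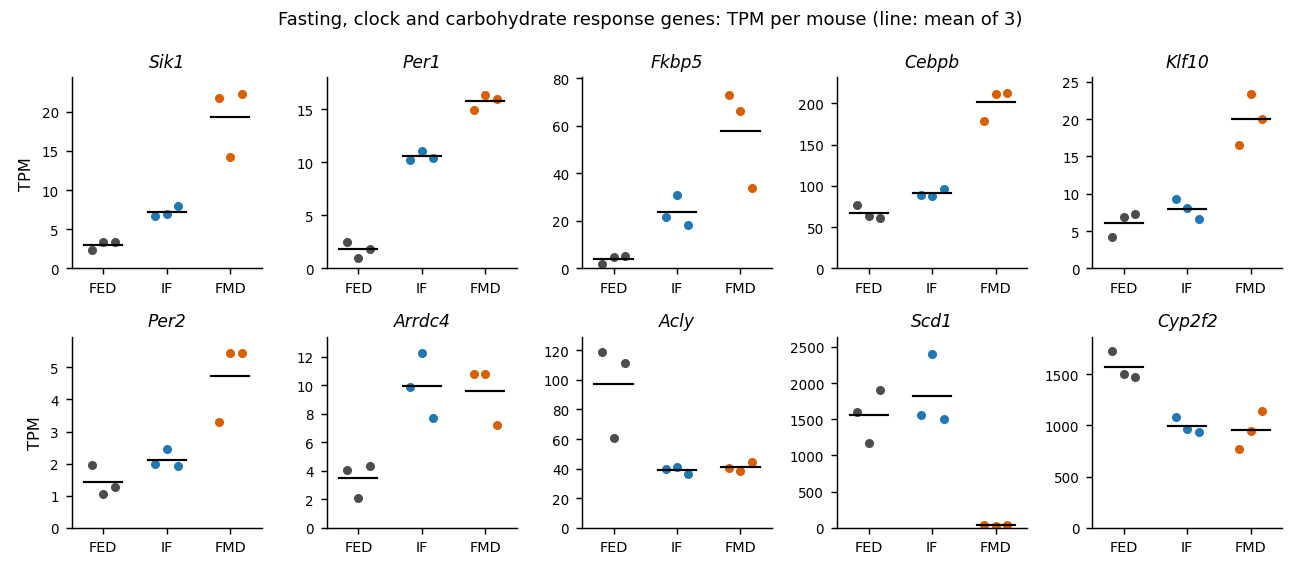
TPM in each of 9 livers (y axes from 0, a scale for each gene) for fasting, clock and carbohydrate response genes and the periportal marker Cyp2f2, by group. Points are single mice and lines are means of 3 mice. In IF livers Per1 and Fkbp5 are far above FED and Acly and Cyp2f2 below it, whereas Scd1 is low in the 3 FMD livers alone.

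The likeness of every other tested gene to Rgs16 was measured as Pearson's r of log2(TPM + 1) over the 9 libraries, which share 3 groups and the library-wide shift. The median r over 4664 genes was 0.58, and 0.00 after scaling. An r of at least 0.9 was reached by 41 genes, and by 14 after scaling. The 8 genes most alike were Zfp236 (r = 0.952), Mbtps1 (0.952), Coq10b (0.952), Kifbp (0.951), Fads2 (0.941), Itpr1 (0.941), Mtrr (0.938) and Pik3ca (0.935). Their Spearman rank correlation ranged from 0.58 to 0.90. Of these 8, 2 were also among the 8 most alike after scaling, namely Coq10b (r = 0.927) and Mtrr (0.929), while Mbtps1 dropped to -0.04. The other 6 of the scaled list were Slf2, Wdr82, Hcfc2, Maff, Hsp90ab1 and Dnaja1. The list rested on single libraries, since without FMD replicate 2, 0 of the 8 stayed in it, and 2 to 4 stayed without FED replicate 2, IF replicate 1 or 2, or FMD replicate 1 or 4.

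The size of the difference varied widely among genes of like pattern. Coq10b, a chaperone of coenzyme Q in mitochondria, was at 14.7, 14.7 and 13.8 TPM in FED, 15.6, 17.5 and 17.5 in IF and 35.7, 46.9 and 43.5 TPM in FMD. Mtrr, which keeps methionine synthase active, was at 1.63, 1.82 and 1.92 TPM in FED, 1.61, 2.22 and 1.98 in IF and 4.26, 3.94 and 3.07 TPM in FMD. Fads2, a desaturase of polyunsaturated fatty acids, averaged 249 ± 20.5 TPM in FED, 301 ± 12.9 in IF and 518 ± 70.0 TPM in FMD (SD, n = 3 each), in the same livers in which the desaturase Scd1 was low. Zfp236, a zinc finger protein, went only from 2.07 ± 0.0764 TPM in FED to 3.21 ± 0.342 TPM in FMD, and Mbtps1, the site-1 protease that activates SREBP, from 18.0 ± 0.172 to 22.8 ± 1.28 TPM. Pik3ca, the catalytic subunit of PI3 kinase, averaged 4.55 ± 0.351 TPM in FED, 4.79 ± 0.409 in IF and 7.69 ± 0.640 TPM in FMD. In Kifbp, a kinesin-binding protein, the means were 6.12 ± 0.146, 6.54 ± 0.587 and 10.2 ± 1.28 TPM. After scaling, the log2 fold change in FMD vs FED was 0.95 for Coq10b, 0.50 for Fads2, 0.36 for Mtrr, 0.17 for Pik3ca, 0.15 for Kifbp, 0.06 for Zfp236 and -0.20 for Mbtps1, the last of which was 0.32 as deposited.

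At the other end, Scd1 was the most opposite gene as deposited (r = -0.952; -0.929 after scaling) and the only one with an r of -0.9 or less before scaling. It was followed by Tsc22d1, a leucine zipper factor (-0.893), Hsd3b7, an enzyme of bile acid synthesis (-0.889), and B2m, the light chain of MHC class I (-0.886). Hsd3b7 averaged 469 ± 18.5 TPM in FED, 389 ± 30.9 in IF and 269 ± 18.4 TPM in FMD, and B2m 2240 ± 128, 2249 ± 47.9 and 1651 ± 150 TPM (SD, n = 3 each). Tsc22d1 averaged 68.2 ± 20.6, 52.3 ± 8.34 and 22.8 ± 5.21 TPM. After scaling, the 4 most opposite genes were Ext2 (-0.943), Scd1, Masp1 (-0.927) and Manbal (-0.921), so that 1 of 4 was shared, and Tsc22d1, Hsd3b7 and B2m stood at ranks 27, 123 and 120. Within the lists above, Klf10 (r = 0.901), Cebpb (0.901) and Per2 (0.887) were more like Rgs16 than Sik1 (0.787), Fkbp5 (0.702) and Per1 (0.610).

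**Figure D5:**
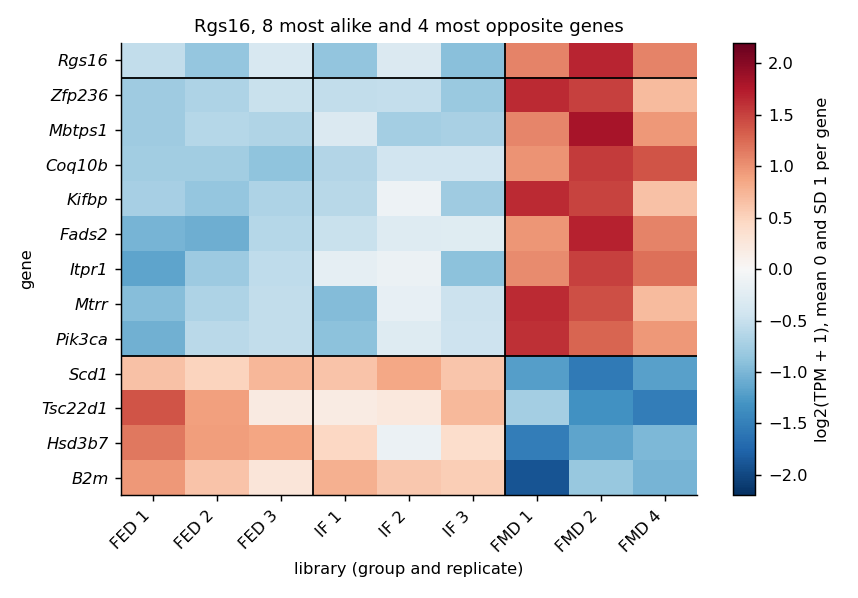
Heatmap of log2(TPM + 1), set to a mean of 0 and an SD of 1 for each gene, for Rgs16, the 8 genes with the highest and the 4 with the lowest Pearson's r to it (rows) in 9 libraries (columns). Red is above and blue below the gene's own mean. The 3 FMD columns are red for Rgs16 and the 8 genes and blue for the 4 opposite genes, and FMD 2 is the reddest column for Rgs16.

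Markers of the cells that liver holds were followed beside these values. Cyp2f2, a periportal enzyme and so of the zone where Rgs16 is known to be expressed, averaged 1568 ± 141 TPM in FED, 994 ± 82.1 in IF and 952 ± 186 TPM in FMD (SD, n = 3 each). It fell by 0.66 in IF vs FED (limma adjusted p = 0.0129) and by 0.73 in FMD vs FED (limma adjusted p = 0.00288) on the log2 scale, the first not called without FED replicate 1 or IF replicate 2. Its level was thus lower in both regimens, while that of Rgs16 was high in FMD alone. The other periportal markers did not share the direction of Cyp2f2 throughout. Ass1, of the urea cycle, averaged 3288, 3925 and 3783 TPM in FED, IF and FMD, with log2 fold changes of 0.21 in IF and 0.13 in FMD, and Gls2, a glutaminase, had 0.09 in IF and -0.20 in FMD, none of them called. After scaling, Gls2 was called lower in FMD vs FED. Over the 3 periportal markers of 16 listed that were in the table, the summed level ranged from 4660 to 5603 TPM in FED, 3685 to 6107 in IF and 3637 to 6316 TPM in FMD. Glul, the 1 pericentral marker of 17 in the table, was at 161 TPM in FMD replicate 1 and between 441 and 644 TPM in the other libraries.

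Of 12 macrophage markers, Cd68 was in the table, with 6.35 to 10.4 TPM in FED, 3.14 to 5.99 in IF and 64.0, 12.2 and 5.75 TPM in FMD. Its high value was in FMD replicate 1. Rgs16 was at 23.6 and 23.5 TPM in FMD replicates 1 and 4, and at 16.5 and 21.5 scaled TPM after scaling. The endothelial gene Oit3, 1 of 11 listed, ranged from 6.58 to 9.28 TPM in FED, 6.35 to 8.02 in IF and 8.85 to 17.2 TPM in FMD. It was called in FMD vs FED (log2 fold change 0.73, limma adjusted p = 0.0145) and in FMD vs IF (0.82, limma adjusted p = 0.0483), in neither after scaling or without FED or FMD replicate 1, and in FMD vs IF only without FMD replicate 4 among the libraries left out. The summed level of 4 of 12 stellate cell and fibroblast markers, among them Dcn and Ecm1, was 128 to 155 TPM in FED, 206 to 257 in IF and 176 to 337 TPM in FMD. Dcn and Ecm1 were called higher than FED by 0.86 and 0.65 in IF and by 0.90 and 0.60 in FMD on the log2 scale, in 0 of these 4 cases after scaling. The other markers of this list, which add little to its sum, were not called, with -0.13 in IF and -0.22 in FMD for Col1a1 and 0.15 and -0.05 for Pdgfrb. The calls of Dcn and Ecm1 in IF were also lost without FED replicate 1 or 3 or IF replicate 2 or 3. That of Ecm1 was also lost without FED replicate 2, and its call in FMD without FED replicate 3 or FMD replicate 1. Krt19 of bile ducts, 1 of 8, stayed between 0.76 and 4.07 TPM. None of the markers in the table was at 0 in all libraries. The part of other cells in the Rgs16 values was not tested.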

How the data were processed

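Liver RNA of 9 mice from the acute experiment (FED 1, 2 and 3, IF 1, 2 and 3, FMD 1, 2 and 4) was oligo-dT enriched and sequenced by the authors as strand-specific libraries on the DNBSEQ platform. The authors deposited TPM values with 2 decimals, which were analysed without change. The processing notes name build mm39 and DESeq2, and the aligner and annotation are not given in the sources used here. The depth is unknown, so no counting intervals are given. Samples were grouped by their titles.

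Genes with a mean of at least 1 TPM (4665) were fitted as log2(TPM + 1) with limma 3.58.1 in R 4.3.3 (lmFit, eBayes with a trend, 1 fit of 9 libraries). A call needed an adjusted p (Benjamini-Hochberg over these genes) under 0.05 and a log2 fold change of more than 0.585 in either direction. A fold change on this scale understates that of low genes. The fit was also run on simulated data without a library-wide shift, which therefore cannot show how the calls respond to one. Scaling used the median ratio to the geometric mean library. Alternatives were the pseudocount, the filter, scaling, 1 fit per pair of groups, no trend, a replicate block and each library left out. Promoter windows came from RefSeq on GRCm38.p6, a different build from that of the values, and were matched by symbol.

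Rgs16 and the gene lists were chosen with earlier results of these data known. Named genes are Rgs16, all RGS family and G alpha genes in the table, up to 4 called members per other list by smallest adjusted p, fixed members such as Per1, Per2, Cyp2f2 and Glul where present, and the 8 genes most and 4 least like Rgs16. Other marker genes named beside them were added for the check of cell types. Of the general hepatocyte (15 listed), lymphocyte (12) and neutrophil (7) markers, 0 were in the table, so these lists could not be used. Figures were made with python 3.11.15 and matplotlib 3.10.9.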

Additional observations from a re-analysis of the deposited data

How the results depend on the processing

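The Rgs16 difference kept its direction in every alternative run. Its log2 value was 3.11 in FMD vs FED and 3.32 in FMD vs IF with a pseudocount of 0.5, and 3.27 and 3.52 with 0.1. Leaving out each library in turn gave 2.62 to 3.11 in FMD vs FED, 2.81 to 3.41 in FMD vs IF and -0.48 to -0.01 in IF vs FED. The counts of G protein signalling genes called depended on the processing. After scaling they were 4 in IF vs FED (7 as deposited) and 6 in FMD vs FED (15 as deposited), and 2 of the 8 genes most like Rgs16 were kept. With 1 fit per pair of groups, 1 was called in FMD vs IF (3 as deposited). With each library left out, the counts were 5 to 7 in IF vs FED, 9 to 19 in FMD vs FED and 1 to 10 in FMD vs IF, and 0 to 7 of the 8 genes most like Rgs16 were kept. The cause was not tested. Among 51 calls of named genes, 28 were lost after scaling and 0 of 816 alternative values changed sign. The sharing of replicate numbers could not be shown to pair mice: the correlation of deviations was 0.00348 to 0.177 over 7 pairs with the same number, with 4 of them over 0.1, and not every library correlated best with its own number. A replicate block gave 7 calls among the G protein signalling genes in IF vs FED, 19 in FMD vs FED and 9 in FMD vs IF, and of the named calls Gna12 in FMD vs FED (0.58) and Per2 in FMD vs IF (0.71) were lost under it. The depth of the libraries is unknown, so no limit from counting could be given.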
